A study of Macaca mulatta with 4 samples.

Results

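Chromosome 20 of the rhesus macaque (Macaca mulatta) is known as the counterpart of human chromosome 16, which these positions alone cannot check, and is described here through its DNase I hotspots in embryos that carry the genome of only 1 parent. The hotspots were taken by chromosome name from 4 lists, 1 list per DNase-seq library, which gave 9858 hotspots on chromosome 20 of 328084 in all. Overlapping or touching hotspots of the 4 lists merged into 6459 regions on the chromosome, of 222970 in the series. All libraries came from morulae, the stage of a compacted ball of cells before the blastocyst forms, and the labels name no further allele or agent.

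The AG libraries (replicates 1 and 2) came from androgenetic embryos, whose nuclear chromosomes all derive from sperm. The GG libraries (replicates 1 and 2) came from gynogenetic embryos, whose nuclear chromosomes all derive from the oocyte. Neither kind is a normal embryo with both parental genomes, and such a biparental embryo was not analysed here. DNase I was used at 40 U/ml in both groups, at 37 °C for 5 min. The labels do not say whether replicates were separate embryos or cultures, so p-values over libraries reflect the spread of these 4 samples and that spread may be technical. Donors and the making of the embryos cannot be told apart from parental origin. Chromosome 20 was selected on its share of covered bp, already known to be larger in AG, so values of AG against GG for that share are given as a description and were not tested.

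DNase I cuts DNA where nucleosomes are absent or displaced, which marks promoters, enhancers and other regulatory elements in use. In the morula the embryo's own genome is already transcribed and the first lineage decision is under way. The 2 parental genomes reach this stage from very different starts, since sperm DNA is packed mostly with protamines and oocyte DNA with histones, and imprinted loci keep a parent-specific state. A comparison of AG with GG embryos asks which open chromatin follows 1 parental origin. A hotspot is a stretch with more cuts than its surroundings, and the deposited lists hold its position and the authors' score but no read counts. The depth of each library is therefore unknown, and no counting interval can be given. Positions are in the rheMac8 build, counted from 1, and carry no gene names or sequence because neither an annotation nor a genome of rheMac8 was used here.

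The amount of open chromatin on chromosome 20 is given first. AG replicate 1 had 2319 hotspots on the chromosome and AG replicate 2 had 2916, against 2481 in GG replicate 1 and 2142 in GG replicate 2. They covered 2.47 and 2.99 Mb in the AG libraries, against 2.63 and 2.27 Mb in the GG libraries. Number and covered length thus overlapped between the groups, with AG replicate 1 between the GG libraries. Mean covered length was 2.73 ± 0.367 Mb in AG and 2.45 ± 0.258 Mb in GG (SD, n = 2 libraries each). On the rest of the genome the hotspots covered 65.4 and 81.3 Mb in AG, against 99.5 and 90.9 Mb in GG, and here both AG libraries lay below both GG libraries. As a share of all covered bp, chromosome 20 therefore took 3.64 and 3.55% in AG, against 2.58 and 2.43% in GG, with the AG mean 1.43 times the GG mean. The 2 scales differ in what they show: the shares did not overlap, while the covered lengths did.

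Relative to other autosomes, chromosome 20 changed place between the groups. It spans 2.80% of the autosomal length, taking the end of the last hotspot in any list as a chromosome's length. Hotspots covered 32.9 and 39.9 kb per Mb of chromosome 20 in AG, against 35.1 and 30.2 kb per Mb in GG. On the other 19 autosomes together they covered 25.1 and 31.3 kb per Mb in AG, against 38.3 and 34.9 kb per Mb in GG. Chromosome 20 was thus 1.31 and 1.28 times as densely covered as the others in the AG libraries, against 0.918 and 0.865 times in the GG libraries. By covered bp per Mb it ranked 4th of 20 autosomes in both AG libraries, and 13th and 16th in GG replicates 1 and 2.

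The size of the AG to GG gap varied with score. Each list was cut into deciles by its own score, and the share of hotspots on chromosome 20 was taken in each decile. In the lowest decile chromosome 20 held 3.45 and 3.02% of hotspots in AG, against 2.48 and 2.49% in GG. In the top decile it held 3.63 and 3.83% in AG, against 3.14 and 3.41% in GG. The AG share stayed near one level through the list, with group means between 3.23 and 3.73%. The GG mean was lowest in the second decile, at 2.24 ± 0.249%, and highest in the top decile, at 3.28 ± 0.184% (SD, n = 2). AG over GG was 1.61 in the second decile and 1.14 in the top decile. Chromosome 20 was thus closest between AG and GG among the strongest hotspots. No decile had overlapping groups, which restates the larger AG share by which the chromosome was picked.

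**Figure D1:**
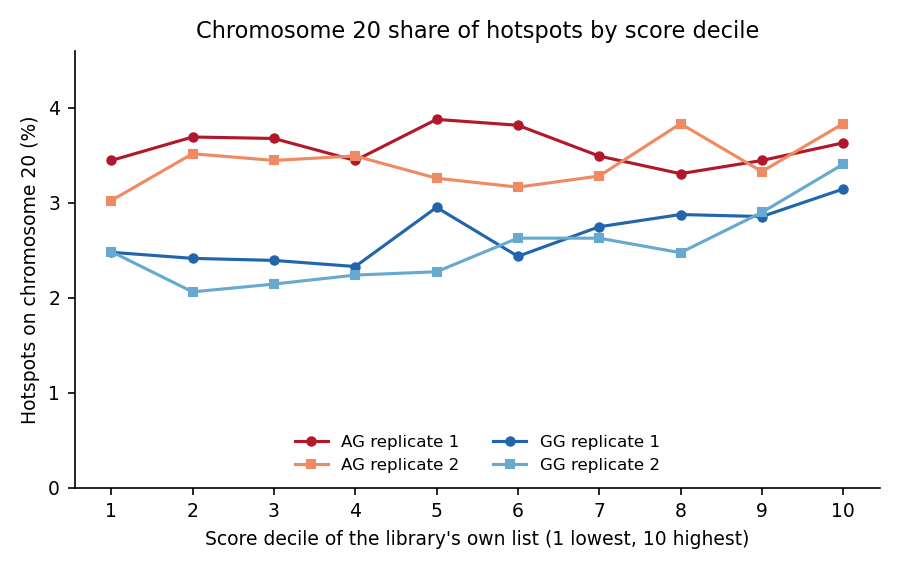
Share of each library's hotspots that lie on chromosome 20 (%, y axis) by score decile of that library's own list (x axis, 1 lowest and 10 highest). Both AG libraries lie above both GG libraries in every decile, and the gap narrows from a mean ratio of 1.61 in the second decile to 1.14 in the top decile.

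The same ratio was taken for 3 other chromosomes. On chromosome 19 it was 1.23 in the lowest decile, 1.56 in the fifth and 1.07 in the top decile. Chromosome 10 had 1.17 in the lowest, 1.34 in the sixth and 1.16 in the top decile. Chromosome 16 had 1.04 in the lowest, 1.40 in the fifth and 1.03 in the top decile. Chromosomes 19 and 10 also had no decile with overlapping groups, while on chromosome 16 the groups overlapped in the lowest, ninth and top deciles. These ratios rest on 2 libraries per group and the differences between chromosomes were not tested.

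Strong hotspots made up a larger part of chromosome 20 than of the other autosomes in every library, though by only 0.160 percentage points in AG replicate 1. The top score decile of a list held 10.1 and 11.2% of the chromosome's hotspots in AG, against 11.8 and 13.5% in GG, where the other autosomes gave 9.97 and 9.92% in AG and 9.89 and 9.82% in GG. The excess of chromosome 20 over the other autosomes was positive in 4 of 4 libraries, with a mean of 1.76 ± 1.47 percentage points (SD, n = 4 libraries). The two-sided exact sign-flip permutation test gave p = 0.13, which is the smallest p that 4 libraries can give. A larger share of the top than of the lowest decile was not particular to chromosome 20 (means of 3.23 and 3.73% in AG, 2.48 and 3.28% in GG, lowest first). Chromosome 19 had 2.68 and 8.23% in AG, 2.19 and 7.67% in GG. Chromosome 16 had 3.46 and 5.92% in AG, 3.33 and 5.75% in GG. Chromosome 10 had 3.91 and 4.95% in AG, 3.33 and 4.26% in GG. The excess of chromosome 20 over the other autosomes averaged 0.728 percentage points in AG and 2.80 in GG, with an exact permutation p of 0.3333 (two-sided), the smallest that 2 libraries against 2 can give. It is taken relative to the chromosome's number of hotspots, which is tied to the share by which the chromosome was picked. AG against GG therefore supports nothing here.

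Hotspot width is one component of covered length, by which the chromosome was picked, so AG against GG supports nothing here. The median width on chromosome 20 was 930 and 928 bp in AG, against 879 and 894.5 bp in GG. On the other autosomes it was 904 and 889 bp in AG, against 905 and 920 bp in GG. Relative to those elsewhere, chromosome 20 hotspots were thus wider by 26 and 39 bp in the AG libraries, and narrower in the GG libraries (chromosome 20 minus other autosomes, -26 and -25.5 bp). The AG minus GG difference of this contrast was 58.25 bp, with a two-sided exact permutation p of 0.3333, the smallest that these libraries can give. Over all 4 libraries chromosome 20 did not depart from the other autosomes in one direction, with a mean of 3.38 ± 34.0 bp (SD, n = 4, exact sign-flip p = 0.875). The sign of that mean turned without AG replicate 1 (-4.17 bp) or AG replicate 2 (-8.50 bp).

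**Figure D2:**
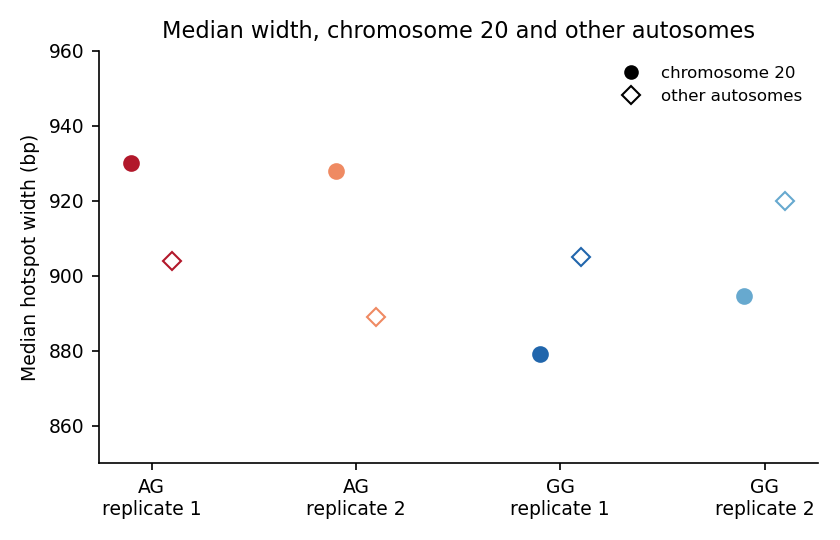
Median hotspot width (bp, y axis, which does not start at 0) in each library, with filled circles for chromosome 20 and open diamonds for the other 19 autosomes. The circle lies above the diamond in both AG libraries and below it in both GG libraries.

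Within lists, strong hotspots were wider. In the top decile chromosome 20 hotspots had median widths of 1587 and 1469 bp in AG, against 1757 and 1746 bp in GG. In the lowest decile the medians were 659 and 689 bp in AG, against 589 and 593 bp in GG. The chromosome 20 median exceeded that of the other autosomes in 7 and 8 of 10 deciles in the AG libraries, and in 0 of 10 in either GG library. In the top decile, both GG medians lay above both AG medians on chromosome 20 itself. This was not particular to chromosome 20. The other autosomes had 1637 and 1439 bp in AG, against 1998 and 1954 bp in GG, in the top decile. In the lowest decile they had 642 and 646 bp in AG, against 610 and 633 bp in GG.

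Hotspots of at least 2000 bp numbered 199 and 238 on chromosome 20 in AG, against 249 and 204 in GG. They made up 8.58 and 8.16% of the chromosome's hotspots in AG, against 10.04 and 9.52% in GG. On chromosome 20 the GG lists thus held both the smaller median and the larger share of very wide hotspots. On the other autosomes the share was 8.94 and 6.65% in AG, against 11.1 and 10.7% in GG. The widest single hotspot reached 5694 and 6366 bp in AG, against 6168 and 6336 bp in GG.

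The next question was how well hotspots on chromosome 20 were found again. A hotspot counted as found again with at least 1 bp of overlap in the other library of its group. This held for 37.8 and 30.1% of chromosome 20 hotspots in AG, against 41.4 and 48.1% in GG. In the libraries of the other group, 35.1 and 32.9% of the hotspots of AG replicate 1 were found again, and 28.5 and 26.2% of those of AG replicate 2. For GG replicate 1 these shares were 33.0 and 33.5%, and for GG replicate 2 both were 35.6%. By this measure each library was matched more often by its own group than by either library of the other. The measure depends on how much the searched list covers, and AG replicate 2 covered the most of chromosome 20. By the Jaccard index (shared over total covered bp), AG replicate 1 had 0.187 with AG replicate 2, below its 0.191 and 0.192 with GG replicates 1 and 2. Within groups, the other autosomes gave 34.4 and 26.0% in AG, against 37.9 and 41.9% in GG. Chromosome 20 lay above them in 4 of 4 libraries, by 4.30 ± 1.29 percentage points (SD, n = 4, two-sided exact sign-flip p = 0.13, the smallest possible). The 2 libraries of a group were searched in each other, so their shares rest on the same overlaps. The SD and this p treat 4 dependent values as independent, and no conclusion is drawn from them. These shares differed widely with score: in the top score decile of the chromosome's own hotspots 84.8 and 82.5% were found again in AG, against 88.3 and 91.6% in GG, and in the lowest decile 10.8 and 12.4% in AG, against 18.5 and 20.6% in GG.

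Overlap of single positions was strongest within GG. The Jaccard index (shared over total covered bp) on chromosome 20 was 0.187 for the AG pair and 0.279 for the GG pair. The 4 mixed pairs, each with 1 library of either group, gave 0.173 to 0.192, so the AG pair lay inside that range and the GG pair above it. On the other autosomes the AG pair had 0.168, the GG pair 0.247 and the mixed pairs 0.143 to 0.173. The mean within groups exceeded the mean of mixed pairs by 0.0503 on chromosome 20, and by 0.00461 without GG replicate 1, 0.00451 without GG replicate 2, 0.105 without AG replicate 1 and 0.0868 without AG replicate 2.

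The merged regions were then sorted by the libraries that held them. Of the 6459 regions on chromosome 20, 4725 (73.2%, against 74.9% of regions in the series) were called in 1 library, 880 in 2 and 370 in 3. All 4 libraries shared 484 regions, 7.49% of the chromosome's regions against 5.90% in the series. These shared regions numbered 6.46 per Mb on chromosome 20 and 4.87 per Mb on the other autosomes, the 4th highest density of 20. The more libraries held a region, the wider it was, from a median of 742 bp for 1 library through 1241.5 and 1822 bp to 2668.5 bp for all 4. Regions merge the hotspots of several lists, which itself adds width.

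Regions of both AG and neither GG library (AG-only) numbered 215, 3.33% of the chromosome's regions against 2.12% in the series. Regions of both GG and neither AG library (GG-only) numbered 276, 4.27% against 5.48% in the series. Mixed pairs held 74 to 124 regions. The ratio of AG-only to GG-only regions was 0.779 on chromosome 20 and 0.378 on the other autosomes, the second highest of 20 autosomes. The order of the 2 classes depended on how long the lists were. With every list shortened by score to the number of the shortest, 196 regions were AG-only and 191 GG-only, and at equal covered length 213 were AG-only and 125 GG-only. At equal covered length the other autosomes held 4860 AG-only and 5715 GG-only regions, a ratio of 0.850 against 1.70 on chromosome 20. These comparisons use the contrast by which the chromosome was picked and carry no test.

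**Figure D3:**
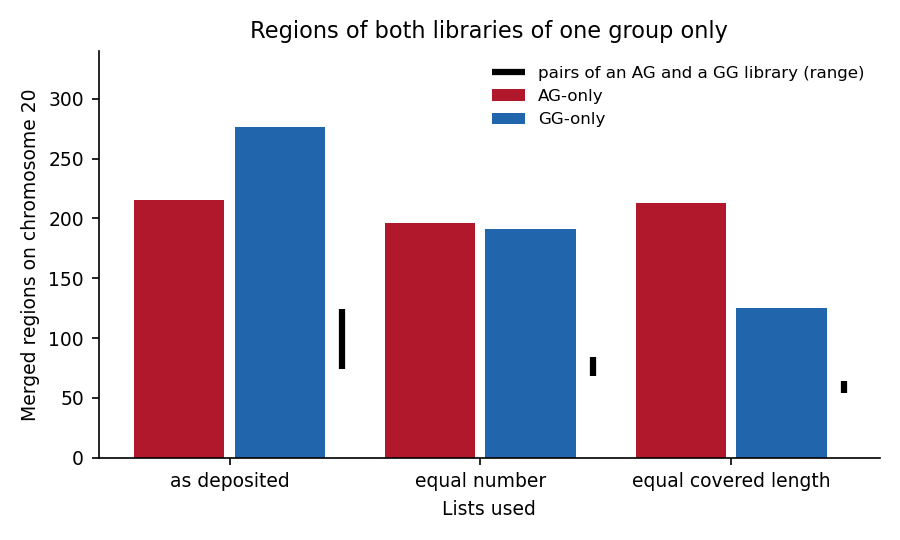
Number of merged regions on chromosome 20 (y axis) in both AG and neither GG library (red) and in both GG and neither AG library (blue), for the lists as deposited and shortened by score to equal number or equal covered length (x axis). Black bars span the 4 mixed pairs of libraries; GG-only regions outnumber AG-only regions in the deposited lists (215 AG-only, 276 GG-only) and the order is turned at equal covered length (213 and 125).

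Chromosome 20 held 3.47% of all regions seen in 1 AG library alone and 2.24% of those seen in 1 GG library alone. It held 3.68% of the regions of all 4 libraries. AG-only regions lay a median of 30.0 kb from the nearest region of all 4 libraries, and GG-only regions also 30.0 kb. On the other autosomes these distances were 41.2 kb for AG-only and 59.7 kb for GG-only regions. Regions of all 4 libraries were also denser on chromosome 20, and the part of that density in these distances was not tested.

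Group-only regions on chromosome 20 had a lower median score than the shared ones. Over the regions found in all 4 libraries, the median of the lowest library score was 6.26. The highest score in the weaker library among AG-only regions belonged to 69772071 to 69773289, with scores of 13.4 and 16.5 in the AG libraries. It was followed by 1644105 to 1644600 (scores of 9.63 and 12.5) and 3233577 to 3234794 (10.4 and 9.22). The remaining AG-only regions of this rank were 72301881 to 72303762 (8.95 and 9.38) and 58668275 to 58672591 (8.67 and 10.4). That last one was also the broadest of the 5, with 4317 bp called in AG replicate 1 and 2210 bp in AG replicate 2. Over all AG-only regions the weaker library had a median score of 4.92.

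Among GG-only regions, 42212573 to 42213208 ranked first, with scores of 12.7 and 11.8 in GG replicates 1 and 2. At 0.497 kb from a region held by all 4 libraries it was the closest of the 10 group-only regions named here. Next came 27554928 to 27556652 (scores of 12.8 and 11.5), at 1.65 kb from a shared region. The regions 72166646 to 72167825 (10.9 and 11.5), 8754171 to 8755816 (11.6 and 10.8) and 69666502 to 69668972 (11.9 and 10.04) followed. Of these, the one at 8754171 was the most isolated, 45.4 kb from the nearest shared region. Over all GG-only regions the weaker library had a median score of 5.01. Scores of the 2 classes come from different lists with an unstated scale, so their heights were not compared.

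The strongest shared region of the chromosome lay at 30207808 to 30208950, with scores of 347 and 324 in AG, against 289 and 318 in GG. It was called almost to the base alike, over 1142 and 1137 bp in AG and 1133 and 1137 bp in GG. Another of the 5 strongest lay just before it, at 30204153 to 30205268, with scores of 123 and 69.8 in AG, against 105 and 111.1 in GG. The others were 23854018 to 23855199 (257 and 229 in AG, 217 and 276 in GG), 65755579 to 65759343 (148 and 131 in AG, 124 and 119 in GG) and 27228973 to 27231522 (129 and 112 in AG, 74.6 and 79.5 in GG). Scores are the authors' values with an unstated scale and are given side by side only to describe each list.

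The widest merged region differed in extent between the groups. At 70381347 to 70390810 (9464 bp), hotspots covered 901 and 932 bp in AG, against 8454 and 6214 bp in GG. The AG libraries each called a single hotspot of ordinary width within a domain that the GG libraries called over most of its length. At 72177291 to 72186119 (8829 bp) they covered 2141 and 5768 bp in AG, against 8405 and 6311 bp in GG, so AG replicate 2 came near GG replicate 2. At 15441746 to 15450117 (8372 bp) the groups overlapped, with 4403 and 6366 bp in AG, against 4648 and 5292 bp in GG. Over all 484 shared regions, both AG libraries covered more bp than both GG libraries in 82 (16.9%, against 12.5% in the series) and fewer in 130 (26.9%, against 34.6% in the series). The median shared region had 1433.5 and 1522.5 bp covered in AG, against 1840 and 1694 bp in GG. Inside shared regions, then, GG libraries had the wider calls on chromosome 20 as well.

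Position along the chromosome was compared next. Hotspots ran from position 7336 to 74970583 and left no long empty block. The median stretch between neighbouring merged regions was 5.23 kb, and 32 of 6458 stretches exceeded 100 kb. The longest was 249 kb, from 48226321 to 48475660, followed by 210 kb from 43904137 to 44114547. Both lay in the sparse middle part of the chromosome. Whether assembly gaps fall there was not tested.

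**Figure D4:**
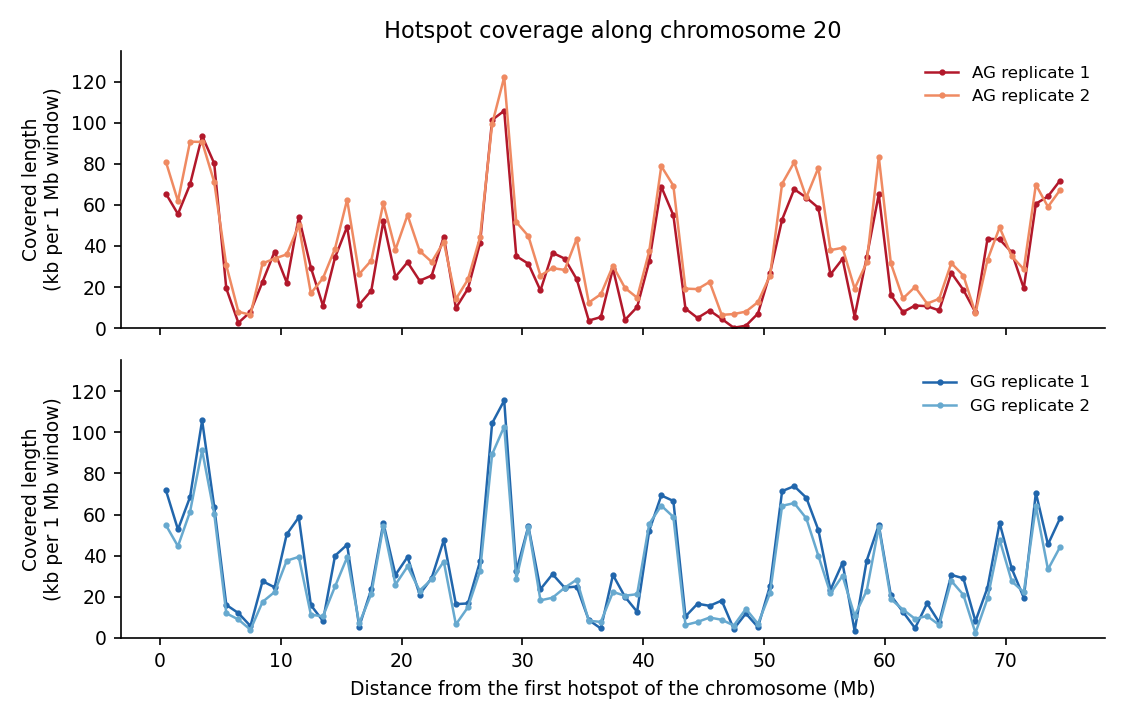
Covered length per window of 1 Mb (kb, y axis) against distance from the first hotspot of the chromosome (Mb, x axis), with AG libraries in the upper and GG libraries in the lower panel. The highest value is at 28 to 29 Mb in all 4 libraries (102.8 to 122 kb).

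Open chromatin was spread unevenly along the chromosome, and the same window was the densest in all 4 libraries. This window of 1 Mb was 28000001 to 29000000, with 106 and 122 kb covered in AG, against 116 and 103 kb in GG. The window before it, from 27000001, had 101.3 and 99.3 kb in AG, beside 104 and 89.3 kb in GG. The third was 3000001 to 4000000, with 93.6 and 90.6 kb in AG, beside 106 and 91.3 kb in GG. In covered length none of these 3 windows separated the groups. The 10 densest windows of a library held 32.0 and 29.3% of its covered bp on chromosome 20 in AG, against 31.1 and 31.9% in GG.

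The window with the lowest mean was 47000001 to 48000000, with 0.210 and 6.88 kb in AG, beside 4.30 and 5.996 kb in GG. AG replicate 1 was nearly empty there and AG replicate 2 was the highest of the 4 libraries. The windows from 67000001 (7.68 and 7.33 kb in AG, 8.09 and 2.39 kb in GG) and from 7000001 (7.96 and 6.51 kb in AG, 5.74 and 3.95 kb in GG) were next. Across 75 windows, scaled log2 values correlated at Pearson r = 0.915 between the AG libraries, 0.930 between the GG libraries and 0.845 to 0.909 in mixed pairs. Neighbouring windows are not independent, and all libraries share the same assembly and mappability.

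The chromosome's hotspots lay mostly in its first part in both groups. The stretch before the midpoint held 55.6 and 54.5% of covered bp in AG, against 54.6 and 54.1% in GG, an AG minus GG difference of 0.718 percentage points (two-sided exact permutation p = 0.667). Leaving out AG replicate 1 made it 0.148, leaving out AG replicate 2 made it 1.29, and leaving out GG replicate 2 made it 0.447. With lists shortened to equal covered length its direction turned, to -0.514. Of 5 blocks of 15 Mb, the third, from 30000001 to 45000000, held 14.9 and 16.4% in AG, against 17.1 and 18.4% in GG. The last, from 60000001, held 18.1 and 16.7% in AG, against 16.6 and 16.2% in GG. These 2 blocks did not overlap between groups, each at the smallest possible exact permutation p of 0.3333, and the other 3 overlapped. A p of this size sets neither block apart, and the shares of blocks within 1 chromosome depend on each other. In the last block AG replicate 2 (16.69%) lay barely above GG replicate 1 (16.63%). The third block also held 27 AG-only and 64 GG-only regions of 1123, while the second held 58 AG-only and 46 GG-only regions of 1490. In the series 2.12% of regions were AG-only and 5.48% GG-only, so more GG-only than AG-only regions is not particular to the third block. By covered bp, the third block was the only one of 5 with a larger share in both GG libraries.

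Windows were compared on a log2 scale after adding 1000 bp and dividing by each library's mean window, with limma over all 2682 windows of the genome. By limma, 0 of 75 windows on chromosome 20 passed a Benjamini-Hochberg adjusted p of 0.05 (0% of windows in the series), and the lowest adjusted p was 0.149. At an unadjusted limma p under 0.05, 23 windows were higher in AG (30.7%, against 6.67% in the series) and 0 were higher in GG (11.3% in the series). The 23 windows became 9 without GG replicate 1 and 5 without GG replicate 2. Both AG libraries lay above both GG libraries in 57 windows (76.0%, against 24.1%) and below both in 5 (6.67%, against 28.9%). The mean difference was above 0 in 66 windows (88.0%, against 47.0%) and below 0 in 9 (12.0%, against 53.0%). Differences over 2-fold occurred in 9 windows higher in AG (12.0%, against 2.65%) and in 1 higher in GG (1.33%, against 8.72%). The median log2 difference was 0.53 over chromosome 20 and -0.04 over the series. Because the chromosome was chosen for its larger AG share, these counts restate that choice. With a variance trend limma called 13 windows, and with an offset of 10000 bp it called 6, all higher in AG. In the series these settings called 3.36% and 1.38% of windows as higher in AG, and 4.77% and 3.69% as higher in GG.

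Without scaling between libraries the picture was more even. The median log2 difference was then 0.17 on chromosome 20 and -0.40 over the series. In covered bp both AG libraries exceeded both GG libraries in 26 windows of chromosome 20 (34.7%, against 6.64% in the series), and lay below both in 7 (9.33%, against 50.9% in the series). Split by density, the median scaled difference was 0.77 in the sparsest 25 windows, 0.55 in the middle 25 and 0.44 in the densest 25. Windows of the same density on the other autosomes had medians of -0.24, -0.15 and 0.07. Each lay below the chromosome 20 median of the same density, a difference that was not tested.

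**Figure D5:**
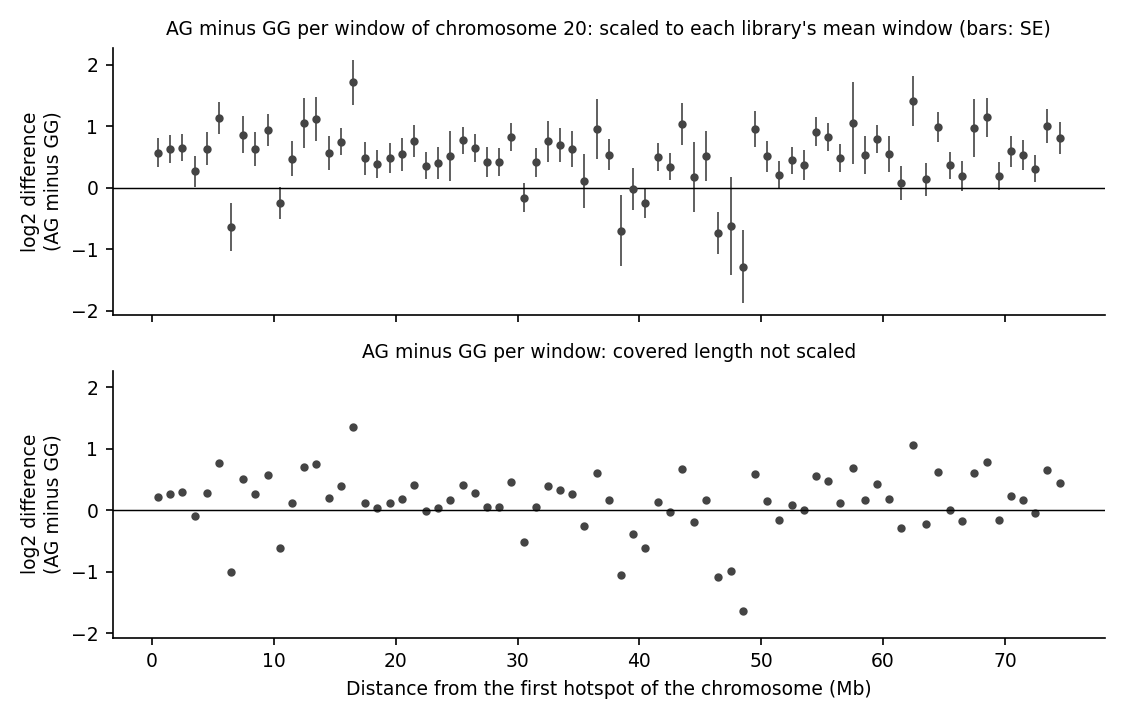
Log2 difference in covered length, AG minus GG, per window of 1 Mb of chromosome 20 (y axis) against distance from the first hotspot (Mb, x axis), scaled to each library's mean window in the upper panel (points with SE from limma, n = 2 libraries per group) and not scaled in the lower panel. Of 75 windows 66 lie above 0 when scaled and 55 when not, and the window starting at 48 Mb lies lowest in both.

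The window with the smallest p was 16000001 to 17000000, where hotspots covered 11.4 and 26.3 kb in AG, beside 5.46 and 7.01 kb in GG. AG replicate 2 stood well above the other libraries, and both AG libraries lay above both GG libraries. The log2 difference was 1.71 (SE 0.37, limma adjusted p = 0.149), or 3.27-fold higher in AG with 1000 bp added and each library scaled. The added 1000 bp shrinks differences of sparse windows, while the scaling raised AG against GG. Without scaling the log2 difference of this window was 1.36. The window from 5000001 had 19.3 and 30.6 kb in AG, beside 16.04 and 11.9 kb in GG (log2 1.13, SE 0.26, limma adjusted p = 0.151). It forms the edge of the dense block at the start of the chromosome.

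The other windows named by their p in this direction were those from 64000001 (log2 0.98), 54000001 (log2 0.91) and 73000001 (log2 1.00), with limma adjusted p of 0.169, 0.172 and 0.178. The first of these is sparse, with 8.62 and 14.3 kb in AG, beside 7.49 and 6.27 kb in GG. The window from 54000001 is dense, with 58.6 and 78.0 kb in AG, beside 52.5 and 39.9 kb in GG. The window from 73000001 lies close to the end of the chromosome and had 64.1 and 59.1 kb in AG, beside 45.4 and 33.3 kb in GG. In all 5 windows the groups did not overlap, with or without scaling. With AG higher, this held for 57 of 75 windows when scaled (76.0%, against 24.1% in the series). Unscaled, it held for 26 (34.7%, against 6.64%). The 5 were picked by p in these same libraries, so their separation supports nothing. The longest run of neighbouring windows with higher mean in AG was 26 windows, from 49000001 to 75000000.

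Only 9 of 75 windows had a higher scaled mean in GG. The widest of these differences was at 48000001 to 49000000, next to the window with the lowest mean, with 1.204 and 8.05 kb in AG, beside 11.9 and 14.1 kb in GG (log2 -1.29, SE 0.59, limma adjusted p = 0.324). Its log2 difference was -0.42 with AG replicate 1 left out and -2.15 with AG replicate 2 left out. The window from 46000001 had 4.51 and 6.48 kb in AG, beside 18.1 and 8.80 kb in GG (log2 -0.74, limma adjusted p = 0.330). Together with the window from 47000001 these form a run of 3 neighbouring windows, and another run of 3 lay from 38000001 to 41000000. In that run, the window from 40000001 had 32.5 and 37.4 kb in AG, beside 52.1 and 55.5 kb in GG (log2 -0.26, limma adjusted p = 0.584). In covered length this is the clearest separation of the run, with both AG libraries well under both GG libraries.

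The window from 38000001 rested on 1 library: it had 4.06 and 19.5 kb in AG, beside 19.9 and 20.5 kb in GG, and its log2 difference of -0.70 became 0.16 without AG replicate 1. The window from 6000001 had 2.61 and 7.98 kb in AG, beside 12.1 and 8.94 kb in GG (log2 -0.64, limma adjusted p = 0.432). Centring each library within each chromosome removes the larger AG share of the chromosome as a whole. Then 3 windows of chromosome 20 had an unadjusted limma p under 0.05 in the direction of AG (4%, against 9.32% in the series). In the direction of GG there were 7 (9.33%, against 10.2% in the series). Windows in the direction of GG were thus no more frequent on chromosome 20 than in the series. After centring, the window from 48000001 stood at log2 -1.78 (limma adjusted p = 0.117) and the window from 46000001 at -1.23 (limma adjusted p = 0.106). The window from 16000001 stood at 1.22 (limma adjusted p = 0.115). No window of chromosome 20 passed an adjusted p of 0.05 after centring, where 16 of 2682 did in the series.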

How the data were processed

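DNase-seq of 4 libraries, AG replicates 1 and 2 and GG replicates 1 and 2, was grouped by the labels. Each library has its own list of hotspots with a score, as deposited by the authors, and no lists were pooled. Their file names state 0.01 as false discovery rate. Neither the scale of the score nor the hotspot caller is stated in the labels. Per the submitters' processing notes, reads relate to build rheMac8, and Trim Galore, Bowtie2, SAMtools and deepTools (3.3.1) were used, in roles not stated. Depth is unknown. Hotspots of chromosome 20 were selected by name. Regions merge overlapping or touching hotspots, and a library held a region with at least 1 bp of overlap. Windows of 1 Mb (mean covered bp at least 2000) were tested with limma (lmFit, eBayes) on the log2 scale, with p-values adjusted over all windows of the genome. Single values were compared by exact permutation tests over libraries. Steps were tested on simulated data. The chromosome, regions and tests were chosen with earlier results of these data known.

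The named regions were, per class, the 5 with the highest score in the weakest library that held them, the 3 widest, per direction the 5 windows with the smallest p, and the 3 densest and 3 sparsest windows. Comparisons without scaling, and shares from hotspots of at least 100 bp, were added after seeing the data. Gene annotation, promoters, imprinted genes and sequences were not analysed here, since no annotation or genome of rheMac8 was used. Calculations used R 4.3.3 with limma 3.58.1, and Python 3.11.15 with scipy 1.17.1, pandas 2.3.3, numpy 2.4.6 and matplotlib 3.10.9.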

Additional observations from a re-analysis of the deposited data

Results flagged for a closer look

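The median width of chromosome 20 hotspots relative to the other autosomes went opposite ways in the 2 kinds of embryo. Chromosome 20 minus other autosomes was 26 and 39 bp in the AG libraries and -26 and -25.5 bp in the GG libraries, an AG minus GG difference of 58.25 bp. The difference was the same in sign, 50.5 bp, with lists shortened to equal number. It was 43.2 bp at equal covered length and 33.8 bp when only the higher-scoring 50% of a list was used, and in both of these 1 GG library had wider hotspots on chromosome 20 than elsewhere, by 8 bp. The two-sided exact permutation p for the deposited lists was 0.3333, the smallest that 2 libraries against 2 can give, and width is a component of the covered length by which the chromosome was picked.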

How the results depend on the processing

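The AG minus GG difference in the share of covered bp, 1.09 percentage points, kept its direction in every alternative run. It was 0.959 in the higher-scoring 50% of each list, 0.983 at equal covered length, 0.907 by number of hotspots, and 1.02 to 1.16 with 1 library left out. The chromosome was picked by its share of covered bp and these runs reuse the same lists, so the kept direction supports nothing. The excess in Jaccard index within groups (0.0503) was 0.0627 at equal covered length and 0.00451 to 0.105 with 1 library left out. AG-only regions numbered 99 and GG-only regions 159 in the higher-scoring 50%, and GG-only regions 125 at equal covered length. With 1 library left out a region needs only 1 library of that group, which gave 280 to 1916 AG-only and 381 to 1405 GG-only regions. The mean width difference from other autosomes ranged from -8.50 to 13.2 bp with 1 library left out. The difference in the share of covered bp before the midpoint was -0.514 percentage points at equal covered length and 0.148 to 1.29 with 1 library left out. Limma called 6 windows with an offset of 10000 bp, 13 with a variance trend, and 0 under the other alternatives. With the replicate number as a block limma called 0 windows of chromosome 20, and 24 windows higher in AG and 1 in GG had an unadjusted p under 0.05. Deviations of same-numbered libraries correlated at -0.0842 over 2682 windows, so the numbers were not treated as pairs. Of 10 windows named by p, all kept their direction except that from 38000001 (-1.56 to 0.16 with 1 library left out, the higher value without AG replicate 1). These windows were picked by p in the same libraries, and the variance trend and the block leave log2 differences unchanged. Their kept direction therefore supports nothing. Unknown depth and 2 libraries per group limit all comparisons, and an exact p under 0.3333 was not possible between groups.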
